A study of Mus musculus with 24 samples.

Results

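SIM-A9 microglia exposed for 2 h to carboxylated single-walled carbon nanotubes (COOH SWCNT) were compared with untreated cells of the same line (control in the figures). The comparison sets 3 libraries of each group against each other, 6 of the 24 RNA-seq libraries. All 24 entered the filter on low counts, which 13116 of 54838 genes passed, and the shared estimate of spread. The series set several neuro-probes beside lipopolysaccharide (LPS), its positive control for inflammation. All wells were plated in serum-containing medium and moved to 270 uL of serum-free medium 2 h before the start. A concentrated sample of 30 uL was then added, and poly-A RNA was taken from the adherent cells 2 h later. The labels give neither the nanotube concentration nor what, if anything, was added to the untreated wells. SIM-A9 is a single immortalised mouse microglial line, and the labels do not say whether the 3 libraries of a group came from separate cultures. The p-values therefore measure the spread between these libraries, which may be technical. Carbon nanotubes wrapped in the short DNA (GT)6 ((GT)6 SWCNT, 3 libraries) and LPS (3 libraries), both at 2 h in the same line, served for direct comparisons.

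Microglia are the resident phagocytes of the brain and take up particles through scavenger and complement receptors. Signals from pattern-recognition receptors reach them through NF-kB, which induces cytokines together with its own inhibitors, and through MAP kinases, which induce the immediate early genes. Immediate early genes encode transcription factors and feedback proteins with short-lived mRNAs, and they respond within minutes and without new protein synthesis. The carboxylated form carries carboxyl groups on the nanotube wall, whereas the (GT)6 form carries a coat of single-strand DNA.

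The libraries held 18176305 to 23155577 counts in the untreated group and 19950689 to 26070623 in the COOH SWCNT group. Microglia and macrophage markers were present in all 6 libraries (11 of 11 tested), with a summed level of 2526 to 2602 CPM (counts-per-million, here of all counts) in untreated cells and 2513 to 2628 CPM with COOH SWCNT. Cd68 (14815 to 21969 counts) and Csf1r (8818 to 14342) had the most counts. P2ry12 had only 28 to 61, Aif1 60 to 105 and Tmem119 72 to 102. In the test described below 1 of the 11 was called higher and 3 lower, 36.4% beside 20.0% over all genes tested. Markers of astrocytes, neurons, endothelium, fibroblasts, lymphocytes and neutrophils reached at most 9 counts in any of these libraries. Among oligodendrocyte markers, Mbp had 58 to 134 counts, Mag up to 3 and Mog 0. Mitochondrial genes took 1.54 to 1.72% of counts in untreated libraries and 1.62 to 1.69% with COOH SWCNT (exact permutation p = 0.6, two-sided). The annotated genes that carry ribosomal RNA sequence took 0.849 to 1.44% against 1.76 to 1.99% (exact permutation p = 0.1, the smallest that 3 against 3 can give, two-sided), while the libraries of the other groups ranged from 0.468 to 2.03%. Levels below are CPM scaled by TMM factors, and fold changes are log2 with the standard error of the edgeR fit.

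After 2 h with COOH SWCNT, 2627 of 13116 genes (20.0%) were called at an adjusted p under 0.05 (edgeR quasi-likelihood test, Benjamini-Hochberg adjustment over all genes). Of these, 1232 genes rose (9.39% of genes tested) and 1395 fell (10.6%). Without COOH SWCNT replicate 1 the lower calls numbered 925 and the higher calls 889. Most differences were small: 2232 of the called genes (85.0%) changed by under 0.5 on the log2 scale, and the median size was 0.24. Large changes were mostly increases, with 119 called genes at a log2 fold change of 1 or more and 16 at -1 or less. Those were 77 without untreated replicate 1 and 25 without COOH SWCNT replicate 3, respectively. The 2 groups of libraries did not overlap for 2529 of the called genes, beside 34.4% of all genes tested.

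Fold change followed transcript length, and the gene groups below are read beside that trend. In the shortest 10% of genes (median transcript 552 nt) the median log2 fold change was -0.15, with 2.36% of genes called higher and 17.6% called lower. In the longest 10% (median 7503 nt) it was 0.07, with 19.0% called higher and 3.35% lower. The deciles between them climbed from -0.10 to 0.03, with 1 slight step down near the top. Across 13112 genes with a length, Pearson's r between log10 length and log2 fold change was 0.16 and Spearman's rho 0.26. Those are descriptions across genes of 1 set of libraries, not independent replicates.

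Each COOH SWCNT library showed the slope on its own. On log10 transcript length the slopes of log2 CPM, less the untreated mean, per 10-fold of length were 0.24, 0.11 and 0.082 in COOH SWCNT replicates 1, 2 and 3, against -0.019, 0.040 and -0.022 in the untreated libraries. The COOH SWCNT slopes all lay above the untreated ones (mean difference 0.14, exact permutation p = 0.1, the smallest possible, two-sided), and replicate 1 was the steepest of the 24 libraries. Without it the difference was 0.095. The mean slope was 0.14 in AAV-treated and 0.13 in Di-2-ANEPEQ-treated cells, and -0.013 with (GT)6 SWCNT and -0.069 with LPS. With the span of the gene in place of transcript length the difference was 0.016 per 10-fold of span. The 2 slopes are per 10-fold of different measures, and which measure the fold changes follow more closely was not tested. Among genes of at least 50 mean counts the difference with transcript length was 0.21. GC content gave a slope difference of 0.025 per 10 percentage points (exact permutation p = 0.3, two-sided).

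**Figure D1:**
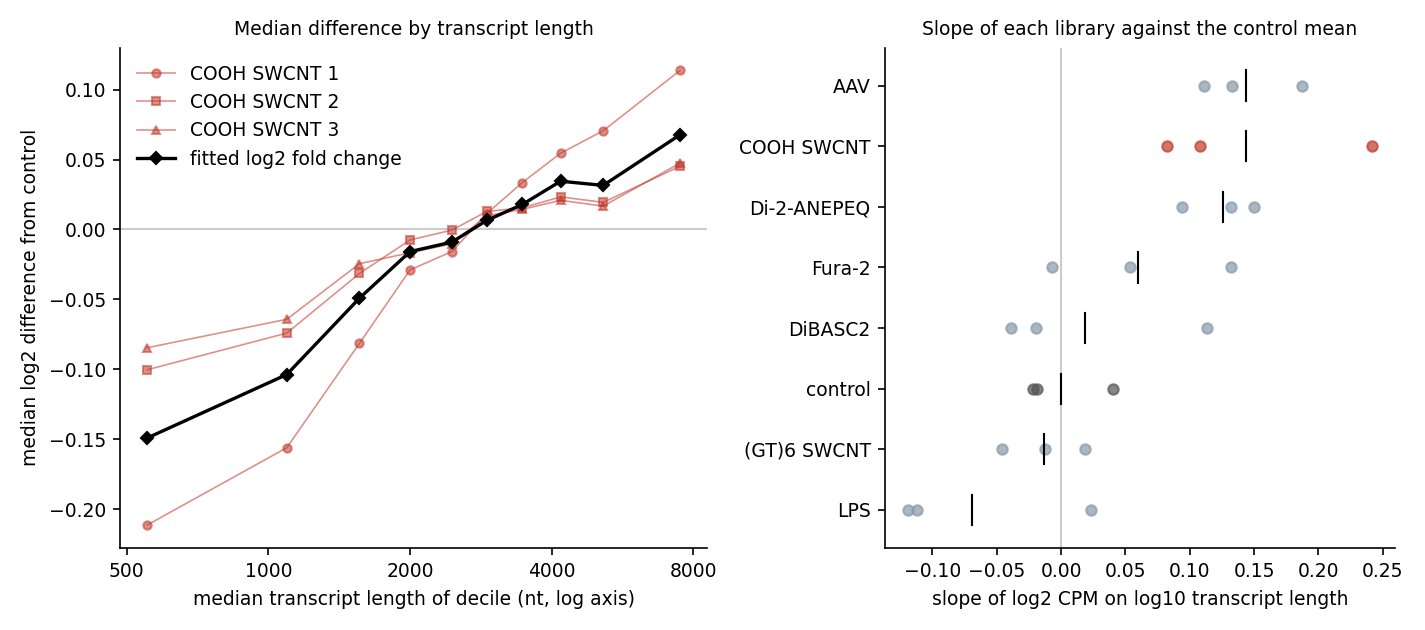
Left, the median log2 difference from untreated cells in each decile of genes by transcript length (nt, log axis), for the 3 COOH SWCNT libraries and for the fitted fold change, which runs from -0.15 in the shortest to 0.07 in the longest decile. Right, the slope of each of the 24 libraries by group, with bars at group means; COOH SWCNT lies between 0.082 and 0.24.

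Among called protein-coding genes with a mean of at least 5 CPM, the 8 largest increases were in Apold1, Egr3, Gdf15, Il1b, Cxcl2, Ccl4, Ccrl2 and Pdgfb. Absence of overlap between the 2 groups of libraries was a condition for this choice. Apold1 (ENSMUSG00000090698.2, chromosome 6, 134981718 to 134986836, + strand), an endothelial early response gene by its usual description, stood at 11.6, 12.5 and 13.4 CPM in the untreated libraries and 42.3, 39.8 and 37.01 CPM with COOH SWCNT (log2 fold change 1.67 ± 0.08 SE, adjusted p = 3.21e-18). Egr3 (ENSMUSG00000033730.4, chromosome 14, 70077203 to 70082614, + strand), a zinc-finger immediate early factor, went from 29.3, 34.04 and 32.7 to 99.5, 97.6 and 83.3 CPM (1.54 ± 0.07 SE, adjusted p = 3.12e-18). In both genes the gap between the groups was wider than the spread within either group. Il1b (ENSMUSG00000027398.13, chromosome 2, 129364570 to 129371139, - strand), which encodes interleukin-1 beta, stood at 9.18, 9.96 and 8.22 CPM untreated and 25.9, 29.01 and 24.4 CPM treated (1.52 ± 0.09 SE, adjusted p = 1.2e-15). Cxcl2 (ENSMUSG00000058427.10, chromosome 5, 90903871 to 90905938, + strand), a neutrophil-attracting chemokine, stood at 15.2, 11.3 and 12.5 CPM against 35.7, 36.9 and 35.5 CPM (1.48 ± 0.09 SE, adjusted p = 3.32e-15). The treated Cxcl2 values were tighter than the untreated ones.

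Ccl4, a macrophage chemokine, was the most abundant chemokine among the 8 highest and stood at 58.96, 53.9 and 46.2 CPM untreated and 135, 143 and 151 CPM treated (1.43 ± 0.09 SE, adjusted p = 5.89e-15). Pdgfb, a growth factor chain, stood at 98.9, 106.0 and 99.6 CPM against 247, 248 and 254 CPM (1.30 ± 0.04 SE, adjusted p = 2.4e-22). Each of the Pdgfb groups was tight. The remaining genes of the 8 were at lower levels. Gdf15, a stress-induced cytokine, stood at 4.23, 3.36 and 4.38 CPM against 11.2, 10.9 and 11.9 CPM (1.53 ± 0.16 SE, adjusted p = 1.93e-09), and Ccrl2, a chemokine-binding receptor, at 3.90, 4.17 and 5.02 CPM against 10.3, 12.02 and 11.2 CPM (1.35 ± 0.12 SE, adjusted p = 4.29e-11). Il1b overlaps the exons of an antisense transcript, and Zfp36, Dusp1, Slc2a1 and Zyx share exon sequence with a gene on the other strand. The sources used here do not give the strand setting of the counting, so reads of such pairs cannot be told apart.

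**Figure D2:**
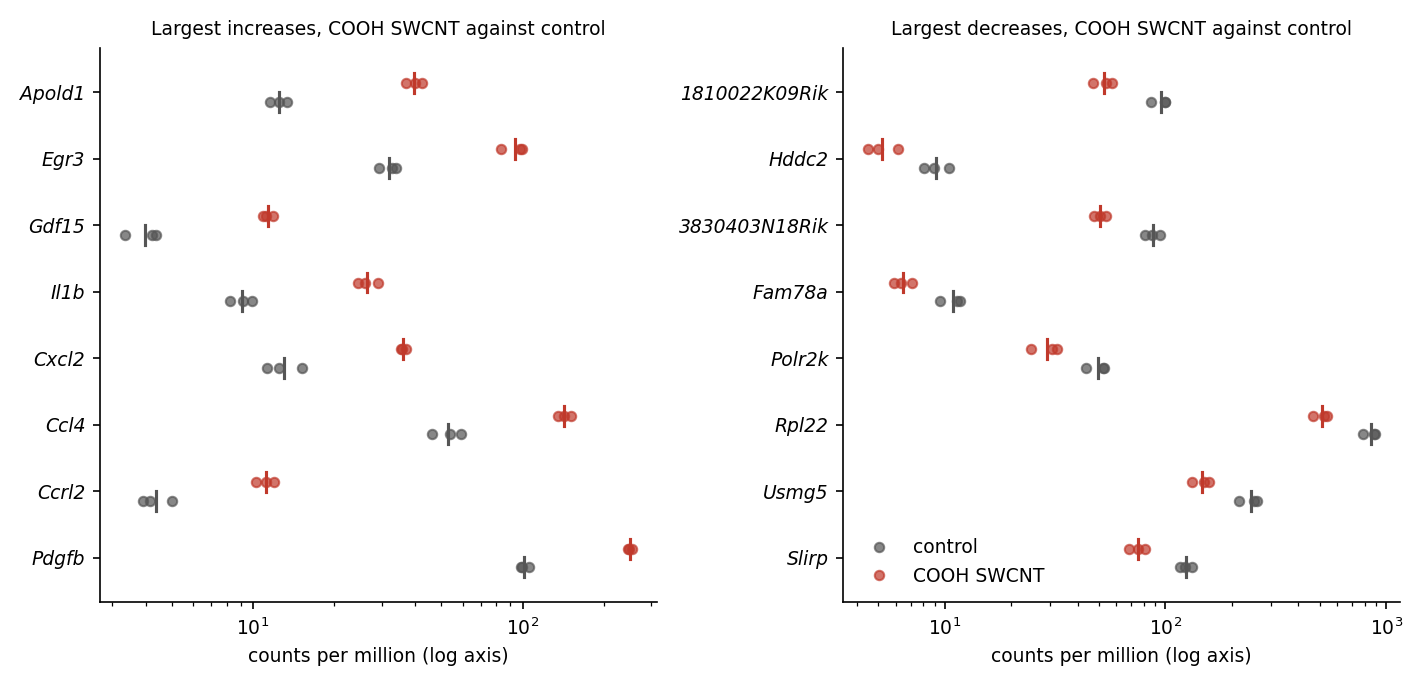
Levels in CPM (log axis) of the 8 genes with the largest increases (left) and the 8 with the largest decreases (right); each point is 1 library, grey for untreated and red for COOH SWCNT, with a bar at the group mean. The 16 genes were chosen with absence of overlap between the groups as a condition. Apold1, for example, is at 11.6 to 13.4 against 37.0 to 42.3.

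Immediate early genes rose almost without exception. Of 28 tested members, 25 were called higher and 0 lower, with a median log2 fold change of 0.63 beside -0.0016 over all genes tested, where 9.39% were called higher. Egr2, which acts with Egr3, stood at 13.8, 15.9 and 14.9 CPM untreated and 36.2, 35.8 and 35.1 CPM treated (1.26 ± 0.07 SE, adjusted p = 2.17e-16). Arc, best known as a synaptic immediate early gene, stood at 10.4, 12.04 and 10.9 CPM against 23.9, 22.5 and 21.5 CPM (1.02 ± 0.09 SE, adjusted p = 2.9e-11). All 3 treated libraries exceeded the untreated ones in both genes. Klf6, a zinc-finger factor and the most abundant member, changed less, from 169, 175 and 169 to 221, 216 and 215 CPM (0.35 ± 0.03 SE, adjusted p = 8.17e-10). Fos, a subunit of AP-1, rose by 0.35 ± 0.09 (SE, adjusted p = 0.0048), from 13.5, 13.96 and 10.8 to 16.5, 15.9 and 16.6 CPM, and was not called without untreated replicate 3 (0.25). The members not called were Klf4 (0.11), Klf2 (0.09) and Nr4a2 (-0.03). Egr1, usually among the strongest immediate early genes, had 0 to 3 counts in each of the 24 libraries and was not tested. With each library's length trend removed, 25 members were called higher, and leaving out single libraries gave 23 to 25.

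The feedback arm of MAP kinase signalling moved with them: 13 of 17 tested genes of ERK and p38 feedback rose and 0 fell (median 0.35). Dusp1, a phosphatase that inactivates p38 and JNK, stood at 8.96, 8.43 and 11.2 CPM untreated and 23.3, 22.8 and 19.4 CPM treated (1.20 ± 0.10 SE, adjusted p = 3.62e-12). Dusp5, a nuclear ERK phosphatase, stood at 39.5, 36.9 and 37.3 CPM against 68.6, 82.1 and 71.96 CPM (0.97 ± 0.06 SE, adjusted p = 7.27e-16). Neither gene's groups overlapped. Dusp8 rose by 1.04 and Dusp2 by 0.85, and the most abundant member, Dusp3, by 0.15 (adjusted p = 0.00136). Dusp10 (0.19), Spred2 (0.01), Dusp14 (-0.02) and Dusp6 (-0.09) were not called. Removing the length and GC trends together left 10 higher calls, and removing length alone left 13.

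To show the sequence next to which these genes start, 4 promoters are printed, 2 from members that hold a CArG box, the element bound by serum response factor, and 2 from members that hold a kappaB site, the element bound by NF-kB. Each run is the 150 bases before the RefSeq transcription start on GRCm38.p6, 5′ to 3′ on the gene's strand, with the matched element in capitals.
Egr2, chr10:67537719-67537868, + strand: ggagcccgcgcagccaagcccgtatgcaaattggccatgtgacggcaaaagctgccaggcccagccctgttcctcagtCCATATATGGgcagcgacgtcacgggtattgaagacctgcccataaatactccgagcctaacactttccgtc
Zfp36, chr7:28379229-28379378, - strand: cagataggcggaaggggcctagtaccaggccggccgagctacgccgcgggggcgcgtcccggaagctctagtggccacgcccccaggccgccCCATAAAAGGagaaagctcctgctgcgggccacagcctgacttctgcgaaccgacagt
Nfkbia, chr12:55492648-55492797, - strand: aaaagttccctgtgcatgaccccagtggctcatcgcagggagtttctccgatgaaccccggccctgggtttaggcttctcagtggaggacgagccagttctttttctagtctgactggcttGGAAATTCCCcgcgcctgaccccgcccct
Cxcl2, chr5:90903749-90903898, + strand: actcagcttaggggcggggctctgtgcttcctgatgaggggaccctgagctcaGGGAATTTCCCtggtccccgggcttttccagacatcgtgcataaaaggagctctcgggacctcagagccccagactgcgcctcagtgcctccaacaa

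The CArG box of Egr2 lies 72 to 63 bases before the start and that of Zfp36 58 to 49 bases before it. The kappaB site of Nfkbia lies 29 to 20 bases before the start, and Cxcl2 holds 2 overlapping matches that together span 97 to 87 bases before it. Windows from 250 bases before to 50 after the start were searched on both strands. Among genes tested that have such a window (9388), a CArG box was found in 1.42%, a kappaB site in 6.19% and the AP-1 element TGANTCA in 6.26%. Of 23 immediate early genes with a window, 2 held a CArG box, 7 a kappaB site and 0 the AP-1 element. Of 18 NF-kB and feedback genes, 9 held a kappaB site, and of 18 cytokine and inflammatory genes, 8 held a kappaB site and 6 the AP-1 element. Of 58 ribosomal protein genes, 2 held a kappaB site. A match describes letters in this window, and elements elsewhere were not searched.

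Genes of the NF-kB pathway rose broadly and modestly. Of 22 tested, 20 were called higher and 0 lower, with a median of 0.38. Zfp36, which encodes tristetraprolin, an mRNA-destabilising inhibitor of cytokine output, stood at 54.5, 60.7 and 55.6 CPM untreated and 118.7, 136 and 110.1 CPM treated (1.09 ± 0.06 SE, adjusted p = 3.8e-16). Traf1, an adaptor induced by NF-kB, stood at 23.2, 23.3 and 24.5 CPM against 42.2, 47.9 and 48.8 CPM (0.97 ± 0.07 SE, adjusted p = 2.79e-13). The treated libraries lay above the untreated ones for both. Nfkbia, the inhibitor IkappaB-alpha and a direct NF-kB target, changed less, from 109.95, 115.4 and 112.9 to 140.4, 143 and 132 CPM (0.29 ± 0.05 SE, adjusted p = 1.59e-05). Tnfaip3, which encodes a ubiquitin-editing inhibitor of the pathway, rose by 0.69, Bcl3 by 0.55 and the most abundant member Tnfaip2 by 0.42. Tnip2 (0.05) and Nfkbib (0.03) were not called. The count was 19 with the length trend removed and 18 to 20 when single libraries were left out.

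Among cytokines, chemokines and inflammatory enzymes, 17 of 28 tested rose and 0 fell, with a median of 0.84. Tnf, which encodes tumour necrosis factor, stood at 36.98, 35.1 and 34.6 CPM untreated and 64.98, 72.04 and 67.8 CPM treated (0.94 ± 0.05 SE, adjusted p = 3.61e-16). Ptgs2, which encodes the inducible cyclooxygenase of inflammation, stood at 42.97, 40.2 and 38.4 CPM against 85.7, 89.6 and 77.8 CPM (1.06 ± 0.06 SE, adjusted p = 9.46e-17). Each gene's treated libraries all lay above its untreated ones. Il1rn, the secreted antagonist of the interleukin-1 receptor and the most abundant member, stood at 672, 539 and 529 CPM against 1259, 1346 and 1326 CPM (1.18 ± 0.08 SE, adjusted p = 1.75e-14). Il1a, the other agonist of that receptor, stood at 12.1, 13.1 and 9.99 CPM against 25.7, 29.2 and 29.1 CPM (1.24 ± 0.09 SE, adjusted p = 1.15e-13). Agonists and antagonist of the interleukin-1 receptor rose together. Cytokines that mark a strong LPS response were near the limit of detection: Il6 had a mean of 0.20 CPM untreated and 0.42 CPM treated and was not called (adjusted p = 0.0854), and Csf3 had at most 0.08 CPM. Of its 8 tested members with a transcript under 1000 nt, 4 rose and 0 fell, whereas 325 of all 1720 tested genes of that length fell and 38 rose.

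Other short-lived and delayed-early mRNAs rose as well, 22 of 30 tested with a median of 0.53 and none called lower. Plau, which encodes urokinase, a plasminogen activator, stood at 513, 479.5 and 449 CPM untreated and 886, 899 and 908 CPM treated (0.90 ± 0.05 SE, adjusted p = 2.69e-17). The 2 groups of libraries did not overlap. Csrnp1 rose by 1.02. Among p53 targets 8 of 17 rose and 1 fell (median 0.30), 52.9% called beside 20.0% over all genes tested. The 4 largest called increases were Btg2 (0.97), Plk2 (0.81), Plk3 (0.68) and Cdkn1a (0.55), of which Btg2, Plk2 and Plk3 are also early-response genes. Sesn1 fell by 0.37 (adjusted p = 0.000386).

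Targets of actin signalling, serum response factor with its MRTF cofactors, and YAP shifted upward by smaller amounts: 14 of 20 tested rose, 0 fell, and the median was 0.21. The list has 31 members, of which 28 were matched by symbol. Zyx, a focal adhesion protein, stood at 132, 134 and 128 CPM untreated and 187, 187 and 186 CPM treated (0.51 ± 0.05 SE, adjusted p = 6.78e-10), and Vcl, which links integrins to actin, at 101.2, 100.3 and 98.95 CPM against 143, 135 and 139 CPM (0.48 ± 0.04 SE, adjusted p = 2.73e-10). Actb, which encodes the abundant beta-actin, stood at 4648, 4695 and 4565 CPM against 5697, 5898 and 5243 CPM (0.28 ± 0.05 SE, adjusted p = 4.2e-05). The lowest treated Actb library was above the highest untreated one. Srf itself rose by 0.39 and Actg1 by 0.40. With the length trend removed 13 members were called higher. In the TGF-beta and BMP feedback list, 6 of 16 rose and 0 fell (median 0.08), 37.5% called beside 20.0% over all genes tested. Id3, an inhibitor of basic helix-loop-helix factors, stood at 6.76, 5.36 and 5.66 CPM against 11.9, 16.5 and 14.1 CPM (1.25 ± 0.12 SE, adjusted p = 3.42e-10). Id2 followed with 0.46.

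**Figure D3:**
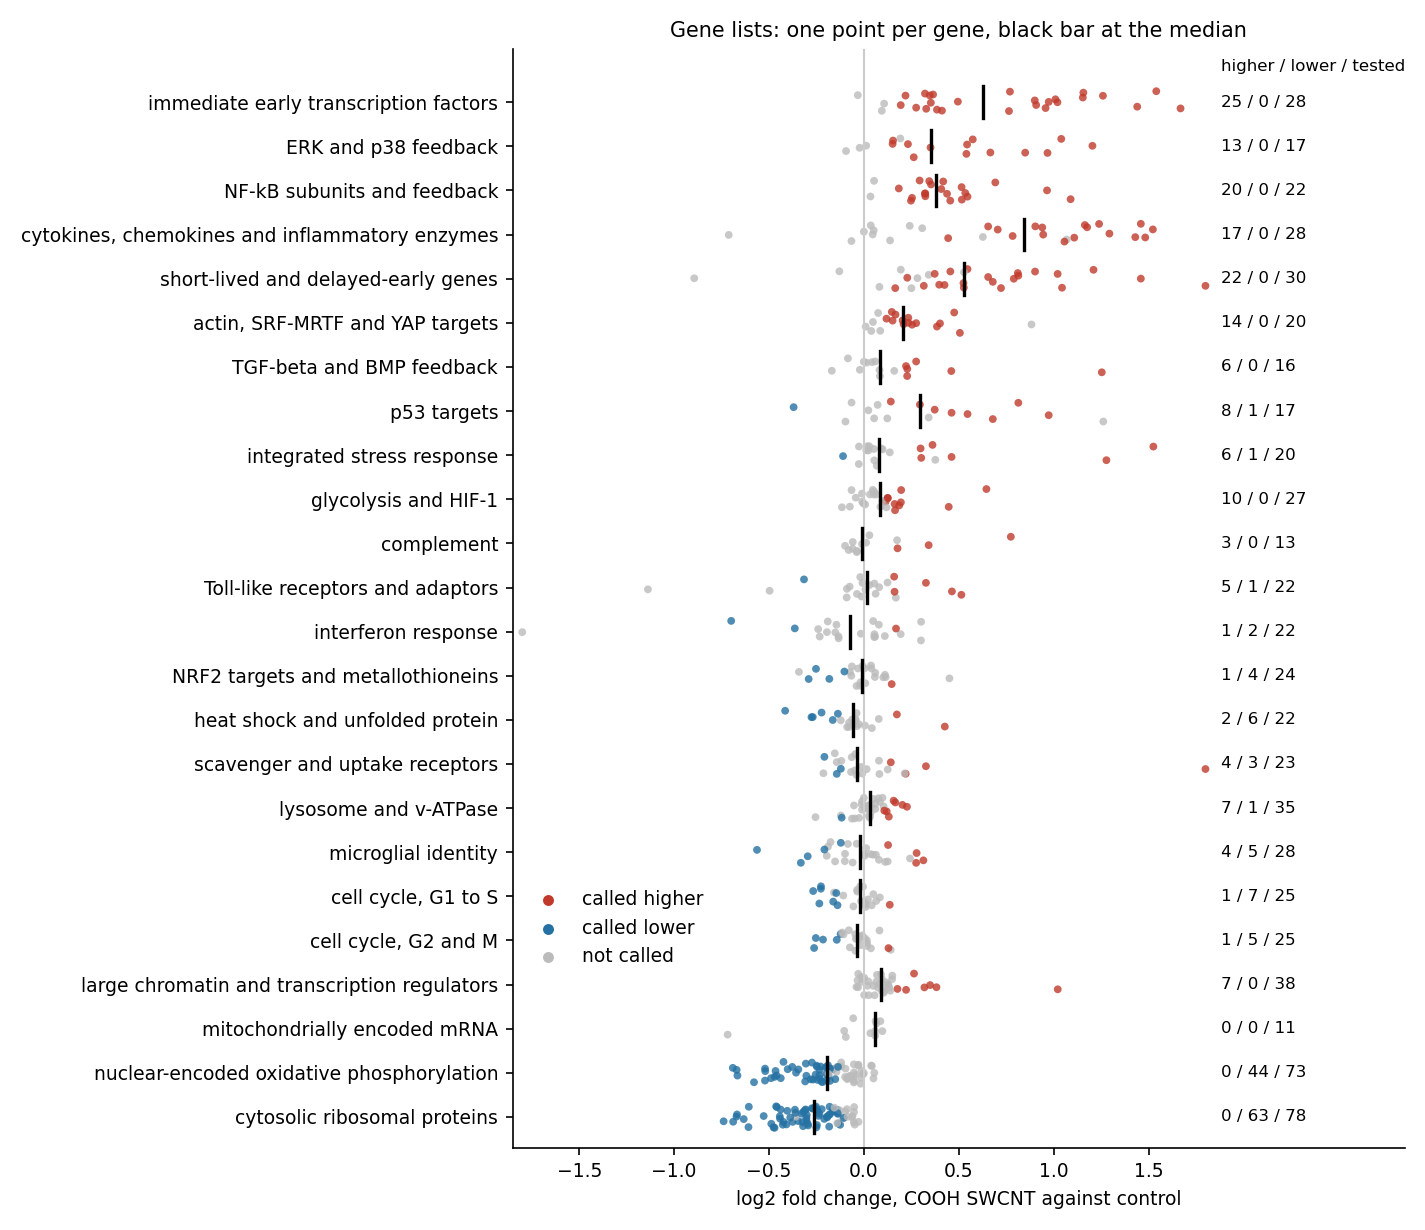
Log2 fold change of COOH SWCNT against untreated cells for each tested gene of 24 lists, red for called higher, blue for called lower and grey for not called, with the median as a black bar and the counts at the right. Increases gather in the immediate early, NF-kB and cytokine lists (medians 0.63, 0.38 and 0.84) and decreases in the ribosomal and oxidative phosphorylation lists (-0.26 and -0.19); 3 points beyond 1.8 are drawn at that limit.

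Lists of stress responses differed in the direction of their calls. In the glycolysis and HIF-1 list 10 of 27 tested rose and 0 fell (median 0.09), a share called of 37.0% beside 20.0% over all genes tested. The increases numbered 7 without untreated replicate 2 or 3 or COOH SWCNT replicate 2. Slc2a1, the glucose transporter of the plasma membrane, stood at 208, 201 and 205 CPM untreated and 309, 329 and 322 CPM treated (0.65 ± 0.04 SE, adjusted p = 2.04e-15). Ndrg1, a hypoxia-responsive gene, stood at 65.9, 66.1 and 65.9 CPM against 88.9, 89.2 and 91.7 CPM (0.45 ± 0.06 SE, adjusted p = 6.81e-07). The abundant glycolytic enzyme gene Pkm did not pass the test (-0.01, adjusted p = 0.899). In the integrated stress response list (35% called) 6 of 20 rose and 1 fell. Beyond Gdf15, those with a mean of at least 5 CPM were led by Sesn2 (0.46), Aldh1l2 (0.36) and Ppp1r15a (0.30), the last encoding a phosphatase subunit that reverses the response, whereas its effector Atf4 was not called (0.02). Chac1, below that level at a mean of 0.83 CPM untreated and 2.04 CPM treated, rose by 1.28 (adjusted p = 0.00101).

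Heat shock and unfolded protein genes were called lower more often than higher, 6 against 2 of 22 tested (median -0.06). The share called was 36.4%, beside 20.0% over all genes tested. The higher calls numbered 1 without untreated replicate 1 or 3 or COOH SWCNT replicate 1. Hspe1, a small mitochondrial chaperonin with a 774 nt transcript, stood at 256, 236 and 240.5 CPM untreated and 169, 189 and 191 CPM treated (-0.41 ± 0.05 SE, adjusted p = 1.26e-07), and with the length trend removed its log2 fold change was -0.25. Xbp1 fell by 0.28 and Hspa8 by 0.14, while Herpud1, which serves degradation at the endoplasmic reticulum, rose by 0.43. NRF2 targets and metallothioneins showed 1 increase and 4 decreases among 24 tested, a share called of 20.8% beside 20.0% over all genes tested, and 4 increases and 2 decreases with the length trend removed. The decreases numbered 2 without untreated replicate 1 or without COOH SWCNT replicate 1. Hmox1, a common marker of oxidative stress, stood at 322, 299 and 297 CPM against 307, 327 and 289.6 CPM, which overlap (log2 fold change 0.01 ± 0.06 SE, adjusted p = 0.948). Of 22 interferon response genes (13.6% called) 1 rose, Irf1 (0.17), and 2 fell, Irf9 (-0.70) and Stat2 (-0.36). Irf1 was not called without untreated replicate 1 (0.12), COOH SWCNT replicate 1 (0.17) or COOH SWCNT replicate 3 (0.15), nor Stat2 without untreated replicate 2 (-0.37), untreated replicate 3 (-0.27) or COOH SWCNT replicate 3 (-0.28). Irf9 shares exon sequence with Rnf31 and Hspe1 with Hspd1.

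Lists of innate sensing had shares called of 23.1% for complement, 27.3% for Toll-like receptors and adaptors and 28.6% for the inflammasome, beside 20.0% over all genes tested. In the complement list 3 of 13 tested rose and 0 fell. C5ar1, the receptor for C5a, stood at 60.7, 60.6 and 60.2 CPM untreated and 101.1, 106.0 and 103.5 CPM treated (0.77 ± 0.05 SE, adjusted p = 1.63e-15). C3ar1 rose by 0.34 and C3 by 0.18. Among Toll-like receptors and adaptors 5 of 22 rose and 1 fell: the adaptor gene Ticam1 rose by 0.51, the kinase gene Irak2 by 0.46 and the LPS co-receptor Cd14 by 0.33, whereas Tlr4 itself stood at 42.6, 40.6 and 41.9 CPM against 33.7, 34.7 and 32.1 CPM (-0.32 ± 0.06 SE, adjusted p = 0.000339). Nlrp3, the sensor of an inflammasome, stood at 95.01, 99.7 and 92.5 CPM untreated and 177, 183 and 179 CPM treated (0.90 ± 0.04 SE, adjusted p = 1.52e-18). The lowest treated Nlrp3 library exceeded the highest untreated one. With Il1b it made up the 2 increases among 14 inflammasome genes, and Aim2 (-0.22) and P2rx7 (-0.15) made up the 2 decreases. P2rx7 was not called without untreated replicate 1 (-0.15), untreated replicate 2 (-0.14), untreated replicate 3 (-0.15) or COOH SWCNT replicate 3 (-0.09). Lower calls in the Toll-like list numbered 2 without untreated replicate 2 and 3 without COOH SWCNT replicate 3.

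Uptake and lysosomal genes changed by small amounts, with medians near 0. The share of scavenger and uptake receptors called was 30.4%, and of microglial identity genes 32.1%, beside 20.0% over all genes tested. Of 23 scavenger and uptake receptors 4 rose and 3 fell (median -0.04). Msr1, the class A scavenger receptor, stood at 10.6, 9.62 and 10.1 CPM untreated and 9.86, 8.17 and 7.95 CPM treated and was not called (-0.21 ± 0.11 SE, adjusted p = 0.198). Marco, another of that class, stood at 0.55, 0.72 and 0.69 CPM against 0.34, 0.65 and 0.85 CPM, too low to read a direction. Cd14 (0.33) and Lrp1 (0.22) were called higher and Tyrobp (-0.21), Fcgr1 (-0.14) and Trem2 (-0.12) lower. Tyrobp, with a 564 nt transcript, had a log2 fold change of -0.03 with the length trend removed and -0.14 without COOH SWCNT replicate 1, and was not called in either or without untreated replicate 3 (-0.18). Lrp1, with a 14888 nt transcript, was at 0.04 and not called with length and GC trends removed, nor was it called without untreated replicate 1 (0.18) or COOH SWCNT replicate 1 (0.18). Trem2 was not called without untreated replicate 3 (-0.08), COOH SWCNT replicate 1 (-0.10) or COOH SWCNT replicate 3 (-0.13). The higher calls numbered 1 without untreated replicate 1 and 2 without COOH SWCNT replicate 1, and the lower calls 0 without untreated replicate 3 or COOH SWCNT replicate 1 and 1 without COOH SWCNT replicate 3. In that list 1 gene was called lower with the length trend removed. Olr1 was called higher on 4 to 11 counts against 0 to 2, and the call was lost without untreated replicate 1 or 2 or COOH SWCNT replicate 1 or 3. It was picked out after its values were seen.

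The shares called were 22.9% for lysosome and v-ATPase, 24% for autophagy, 25% for cholesterol and 15.4% for LXR genes, beside 20.0% over all genes tested. Of 35 lysosomal and v-ATPase genes 7 rose and 1 fell (median 0.03), and 4 rose without untreated replicate 3 and 3 without COOH SWCNT replicate 2. Tfe3, a transcription factor of lysosomal genes, rose by 0.23, Gaa by 0.20 and Grn by 0.17. Gpnmb, the most abundant member, stood at 5287, 5356 and 5237 CPM untreated and 5767, 5935 and 5560.0 CPM treated (0.12 ± 0.04 SE, adjusted p = 0.02). Its call was lost without untreated replicate 1 (0.12), untreated replicate 3 (0.11), COOH SWCNT replicate 1 (0.12) or COOH SWCNT replicate 2 (0.10). The autophagy list held 3 increases and 3 decreases among 25 tested genes, and 5 decreases without COOH SWCNT replicate 2. Microglial identity genes, 4 higher and 5 lower of 28 (median -0.02), moved both ways: Runx1 (0.31) and Irf8 (0.28) rose, and Aif1, a calcium-binding protein of microglia, fell by 0.56 (adjusted p = 0.00783) but was not called with the length trend removed. The higher calls of that list numbered 2 without untreated replicate 2 or COOH SWCNT replicate 1, and the lower calls 2 without untreated replicate 3 and 3 without COOH SWCNT replicate 1. In lipid handling 5 of 24 cholesterol genes rose and 1 fell, and Hmgcs1 stood at 329.9, 302 and 309 CPM against 328, 306 and 303 CPM with no call (adjusted p = 0.947). Abca1, a lipid exporter with a 10262 nt transcript, rose by 0.51, and its partner Abcg1 fell by 0.19 (adjusted p = 0.0318), the 1 increase and 1 decrease among 13 genes of the LXR list. Abcg1 was not called without untreated replicate 2 (-0.13), COOH SWCNT replicate 1 (-0.17) or COOH SWCNT replicate 3 (-0.18).

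Called cell cycle genes mostly fell: 7 of 25 tested G1 to S genes and 5 of 25 G2 and M genes were called lower. That stands beside 10.6% of all genes tested, and each list had 1 higher call. The G1 to S list had a median of -0.02 and 32% called, the G2 and M list -0.04 and 24%. Over all genes tested 20.0% were called. Tyms (-0.27), Gins2 (-0.23), Nusap1 (-0.26) and Hmmr (-0.25) were among the genes called lower, and the proliferation marker Mki67 was not called (-0.04). The G2 and M count was 3 without untreated replicate 2 or 3. With the length trend removed the lower calls were 7 and 9. Of 38 large chromatin and transcription regulators (median transcript 8947 nt) 18.4% were called, beside 20.0% over all genes tested. In that list 7 rose and 0 fell (median 0.09), but with the length trend removed 5 rose and 4 fell (median 0.01). Kdm6b, a histone demethylase induced in activated macrophages, stood apart at 33.6, 38.1 and 39.1 CPM untreated and 73.6, 76.9 and 74.96 CPM treated (1.02 ± 0.07 SE, adjusted p = 8.55e-14), and kept a log2 fold change of 0.96 with the trend removed. Kdm6b overlaps an antisense transcript.

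The largest decreases were smaller than the largest increases. Among the 8 lowest protein-coding genes of at least 5 CPM, 1810022K09Rik (ENSMUSG00000078784.8, chromosome 3, 14606284 to 14611285, - strand) stood at 100.1, 86.4 and 99.4 CPM untreated and 46.9, 53.8 and 57.00 CPM treated (-0.86 ± 0.07 SE, adjusted p = 1.31e-11). Rpl22 (ENSMUSG00000028936.15, chromosome 4, 152325742 to 152334071, + strand), a protein of the large ribosomal subunit, stood at 879, 784 and 891 CPM against 469, 522 and 539.9 CPM (-0.74 ± 0.06 SE, adjusted p = 2.76e-12). Usmg5, a small ATP synthase subunit, stood at 252, 216 and 261 CPM against 131, 149 and 157 CPM (-0.74 ± 0.07 SE, adjusted p = 6.39e-10). Absence of overlap was a condition for being among the 8, and for these genes COOH SWCNT replicate 1 was the lowest library each time. Polr2k, a small subunit shared by RNA polymerases, fell by 0.76, Slirp, a mitochondrial RNA-binding protein, by 0.73, 3830403N18Rik by 0.79, Hddc2 by 0.81 and Fam78a by 0.77. Exons of 1810022K09Rik, Usmg5, Slirp, Hddc2 and Fam78a overlap those of another gene on the other strand, as do those of Rps27a and Cox6c.

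Cytosolic ribosomal protein genes fell together. Of 78 tested, 63 were called lower and 0 higher, beside 10.6% called lower among all genes, and all 78 fitted values lay below 0 (median -0.26, from -0.74 for Rpl22 to -0.03 for Rpl29). Rps27a, a small-subunit protein made as a fusion with ubiquitin, stood at 1847, 1641 and 1865 CPM untreated and 1001, 1122 and 1198 CPM treated (-0.69 ± 0.07 SE, adjusted p = 3.1e-10). Rpl36a stood at 688, 628 and 669.9 CPM against 393, 417 and 437 CPM (-0.67 ± 0.07 SE, adjusted p = 7.21e-10), and Rpl39 at 855, 738 and 833 CPM against 461, 519 and 547 CPM (-0.67 ± 0.07 SE, adjusted p = 2.45e-09). No treated library reached an untreated one in any of these genes. Rpl7a, the most abundant member, went from 3082, 2877 and 2890.2 to 2571, 2774 and 2702 CPM (-0.14 ± 0.04 SE, adjusted p = 0.0115), and its log2 fold change was 0.01 with the length trend removed. Rpl7a was not called without untreated replicate 1 (-0.10) or COOH SWCNT replicate 1 (-0.11). Together these genes took 7.46 to 7.89% of counts in untreated libraries and 6.01 to 6.56% with COOH SWCNT, and the 18 libraries of other groups ranged from 6.88 to 8.15%. The AAV libraries (7.24, 6.91 and 7.27%) and the Di-2-ANEPEQ libraries (7.17, 6.88 and 7.08%) also lay below every untreated one. Each remaining group had at least 1 library within or above the untreated range. Rps27a was likewise below the untreated libraries in every AAV, Di-2-ANEPEQ, DiBASC2 and Fura-2 library, and above them in every LPS library. A lower level than in untreated cells was thus not particular to COOH SWCNT. Many of these genes have near-identical pseudogenes, so how the counting split such reads bears on each single value.

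Nuclear genes of oxidative phosphorylation, which encode subunits of the respiratory chain and ATP synthase, showed the same direction: 44 of 73 tested fell and 0 rose (median -0.19). Cox7b, a subunit of cytochrome c oxidase, stood at 336, 312 and 358 CPM untreated and 191, 215 and 217 CPM treated (-0.69 ± 0.07 SE, adjusted p = 6.87e-10). Cox6c stood at 412, 377 and 424 CPM against 229, 251 and 282 CPM (-0.67 ± 0.07 SE, adjusted p = 6.33e-10), and Ndufa5, a subunit of the NADH dehydrogenase complex, at 75.4, 70.6 and 76.04 CPM against 45.8, 49.2 and 53.5 CPM (-0.58 ± 0.06 SE, adjusted p = 7.31e-09). Every untreated library was above every treated one in the 3 genes. Atp5b, the most abundant member and one of the longer transcripts of the list at 1916 nt, was not called (-0.05 ± 0.03 SE, adjusted p = 0.304). Of the 11 tested mRNAs encoded in the mitochondrial genome 0 were called in either direction, and mt-Co1 stood at 7838, 6823 and 7093 CPM against 7009.9, 7524 and 7746 CPM (0.03 ± 0.05 SE, adjusted p = 0.698).

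These counts moved when length was taken into account. With each library's length trend removed, 45 ribosomal protein genes were called lower and 3 higher (median -0.14), and 22 oxidative phosphorylation genes lower and 6 higher (median -0.05). Without COOH SWCNT replicate 1, the library with the steepest length slope, the lower calls were 51 and 30. Of the mitochondrial mRNAs, 5 were called higher with the trend removed. Among transcripts under 1000 nt, 41 of 50 ribosomal protein genes fell (median -0.28), 31 of 43 oxidative phosphorylation genes (-0.23) and 175 of 557 other protein-coding genes (-0.17). All genes of that length outside the protein-coding class fell in 65 of 1032 cases and rose in 27 (-0.09). That class includes pseudogenes, and its levels are low. Over all lengths the median was 1.06 CPM for lincRNA genes and 0.68 CPM for processed pseudogenes, beside 35.7 CPM for protein-coding genes. The shares called were therefore not compared at like levels. Single genes among the largest decreases of their lists stayed lower: with the trend removed Rps27a was at -0.53 and Cox7b at -0.56. Rpl22 was at -0.73, but its 2051 nt transcript lies in a length decile with a median log2 fold change of -0.02. The cytokine, NF-kB and immediate early counts changed by at most 1 gene under the same step.

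**Figure D4:**
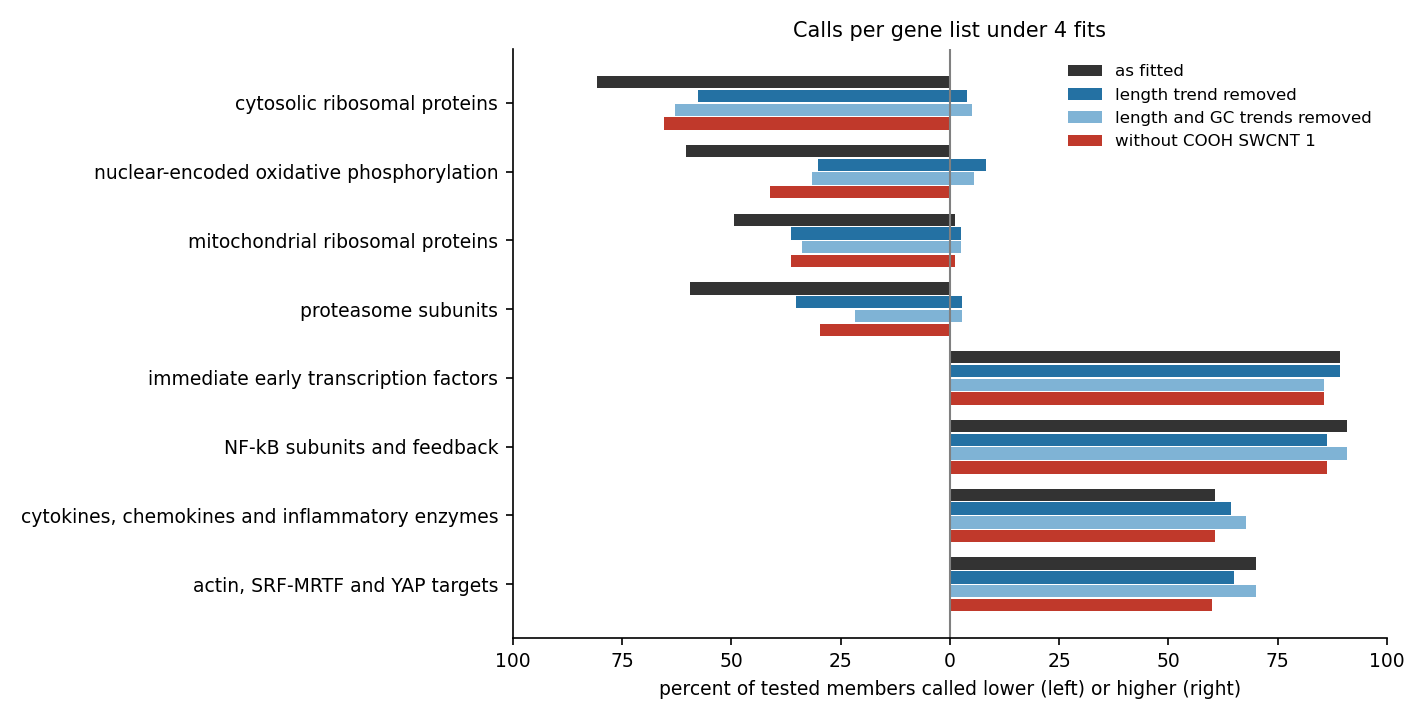
Percent of tested members called lower (left of 0) or higher (right of 0) in 8 gene lists, for the fit as described, with each library's length trend removed, with length and GC trends removed, and without COOH SWCNT replicate 1. Ribosomal protein genes called lower go from 63 of 78 to 45 with the length trend removed, while immediate early genes called higher stay at 25 of 28.

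Genes that carry ribosomal RNA sequence also differed. Gm26917 stood at 148, 163 and 192 CPM untreated and 266, 237 and 229 CPM treated (0.54 ± 0.13 SE, adjusted p = 0.00217), and Gm23935 was called at the edge of the threshold (0.95 ± 0.34 SE, adjusted p = 0.0466). The Gm23935 call was lost without untreated replicate 1 (0.82), untreated replicate 2 (0.81), COOH SWCNT replicate 1 (0.78), COOH SWCNT replicate 2 (1.03) or COOH SWCNT replicate 3 (1.03). Gm42418, the most abundant, stood at 7571, 6583 and 11410.4 CPM against 14946, 14376 and 13789 CPM and was not called (adjusted p = 0.11). Untreated library 3 was higher than the other 2 for Gm42418 and Gm23935. In poly-A RNA these reads may come from carried-over ribosomal RNA or from transcription, which cannot be told apart here, and their part in the length trend was not tested.

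The direct comparison sets the COOH SWCNT against the (GT)6 SWCNT libraries, with the filter and the spread taken from all 24 libraries. It called 2801 genes (21.4%), 1244 higher with COOH SWCNT (9.48%) and 1557 lower (11.9%). The labels give no concentration for either nanotube, so whether the doses match is not known. Cytokine genes were lower with COOH SWCNT than with (GT)6 SWCNT: 17 of 28 were called lower and 0 higher, beside 11.9% called lower among all genes. Cxcl2 averaged 36.04 ± 0.77 CPM (SD, n = 3) with COOH SWCNT and 90.7 ± 5.53 with (GT)6 SWCNT, a log2 difference of -1.33 (adjusted p = 3.01e-16). Il1rn averaged 1310.5 ± 45.6 and 2449.8 ± 176 CPM, a difference of -0.90 (adjusted p = 3.7e-11), and Ccl7 12.03 ± 1.37 and 27.2 ± 1.88 CPM, a difference of -1.19 (adjusted p = 1.51e-11). For Gdf15 the difference was -1.45 (adjusted p = 5.78e-12). Immediate early genes were mostly lower too, 17 lower and 2 higher of 28, with Egr3 at -0.27 (adjusted p = 0.00172) and Fos on the other side at 0.54 (adjusted p = 4.72e-05).

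Some genes did not pass the test between the nanotubes. For Ccrl2 the difference was -0.04 (adjusted p = 0.834) with a 95% interval -0.25 to 0.17, for Tnfaip3 0.02 (adjusted p = 0.874) with a 95% interval -0.10 to 0.14, and for Cdkn1a -0.0037 (adjusted p = 0.97) with a 95% interval -0.11 to 0.10. In the other direction Abca1 was higher with COOH SWCNT by 0.54 (adjusted p = 5.3e-07) and Rubcnl by 0.71 (adjusted p = 8.94e-06). Rubcnl averaged 9.95 ± 0.68 CPM untreated, 7.48 ± 0.61 with COOH SWCNT and 4.54 ± 0.25 with (GT)6 SWCNT, so both nanotube means were below the untreated one. Ribosomal protein genes were lower with COOH SWCNT than with (GT)6 SWCNT in 70 of 78 and oxidative phosphorylation genes in 42 of 73. With the length trend removed these counts were 45 and 24, and 15 cytokine genes were lower. Actin, serum response factor and YAP targets were lower in 11 of 20, with Zyx at -0.43 (adjusted p = 2.7e-08).

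Against LPS, 4954 genes (37.8%) were called, 2374 higher (18.1%) and 2580 lower (19.7%) with COOH SWCNT. The inflammatory genes were far lower with COOH SWCNT: 25 of 28 cytokine genes and 21 of 22 NF-kB genes were called lower, beside 19.7% of all genes. The low-count filter ran over all 8 groups, so a gene high only with LPS could enter, and its lower call here follows from that. With the filter on the COOH SWCNT and untreated libraries alone, 22 cytokine genes and 22 NF-kB genes passed. Tnf averaged 68.3 ± 3.55 CPM (SD, n = 3) with COOH SWCNT and 1144 ± 53.8 with LPS, a log2 difference of -4.07 (adjusted p = 9.88e-39). Il1b averaged 26.5 ± 2.32 and 443 ± 37.4 CPM, a difference of -4.07 (adjusted p = 7.49e-35). Nfkbiz, an NF-kB cofactor, averaged 22.8 ± 0.55 and 844 ± 7.73 CPM (-5.21, adjusted p = 1.35e-41), and Il6 0.42 ± 0.16 and 39.99 ± 2.84 CPM. Immediate early genes split, 9 higher and 14 lower of 28. Egr3 averaged 93.5 ± 8.86 CPM with COOH SWCNT and 35.9 ± 2.33 with LPS (1.38, adjusted p = 1.88e-18). Arc (0.82, adjusted p = 7.87e-10) and Fos (0.97, adjusted p = 2.67e-10) were likewise higher with COOH SWCNT. Fos was also lower with LPS than in untreated cells, at means of 8.30 and 12.8 CPM (-0.62, adjusted p = 8.44e-06 by edgeR).

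Other genes set COOH SWCNT above LPS. Plau averaged 898 ± 10.9 CPM with COOH SWCNT and 484 ± 10.5 with LPS (0.89, adjusted p = 1.88e-18). Il1rn averaged 1466 ± 68.8 CPM with LPS and did not pass the test of a difference (-0.16, adjusted p = 0.0888, 95% interval -0.32 to -0.00), and Dusp1 did not either (-0.07, adjusted p = 0.554, 95% interval -0.25 to 0.11). Gpr183, an oxysterol receptor that guides migration, was higher with COOH SWCNT by 2.74 (adjusted p = 3.22e-29), and Cnr2, the peripheral cannabinoid receptor, by 2.23 (adjusted p = 2.59e-21). Both had lower means with LPS than in untreated cells: Gpr183 averaged 49.8 ± 3.11 CPM untreated, 66.5 ± 1.74 with COOH SWCNT and 9.94 ± 0.35 with LPS, and Cnr2 18.5 ± 0.66, 14.7 ± 0.66 and 3.14 ± 0.24 CPM. Actin, serum response factor and YAP targets were higher with COOH SWCNT in 11 of 20 and lower in 2, with Vcl at 0.46 (adjusted p = 1.48e-10). Ribosomal protein genes were lower in 73 of 78, and in 44 with the length trend removed. Rps27a and Cox6c averaged 2083 ± 105.0 and 456 ± 24.6 CPM with LPS.

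**Figure D5:**
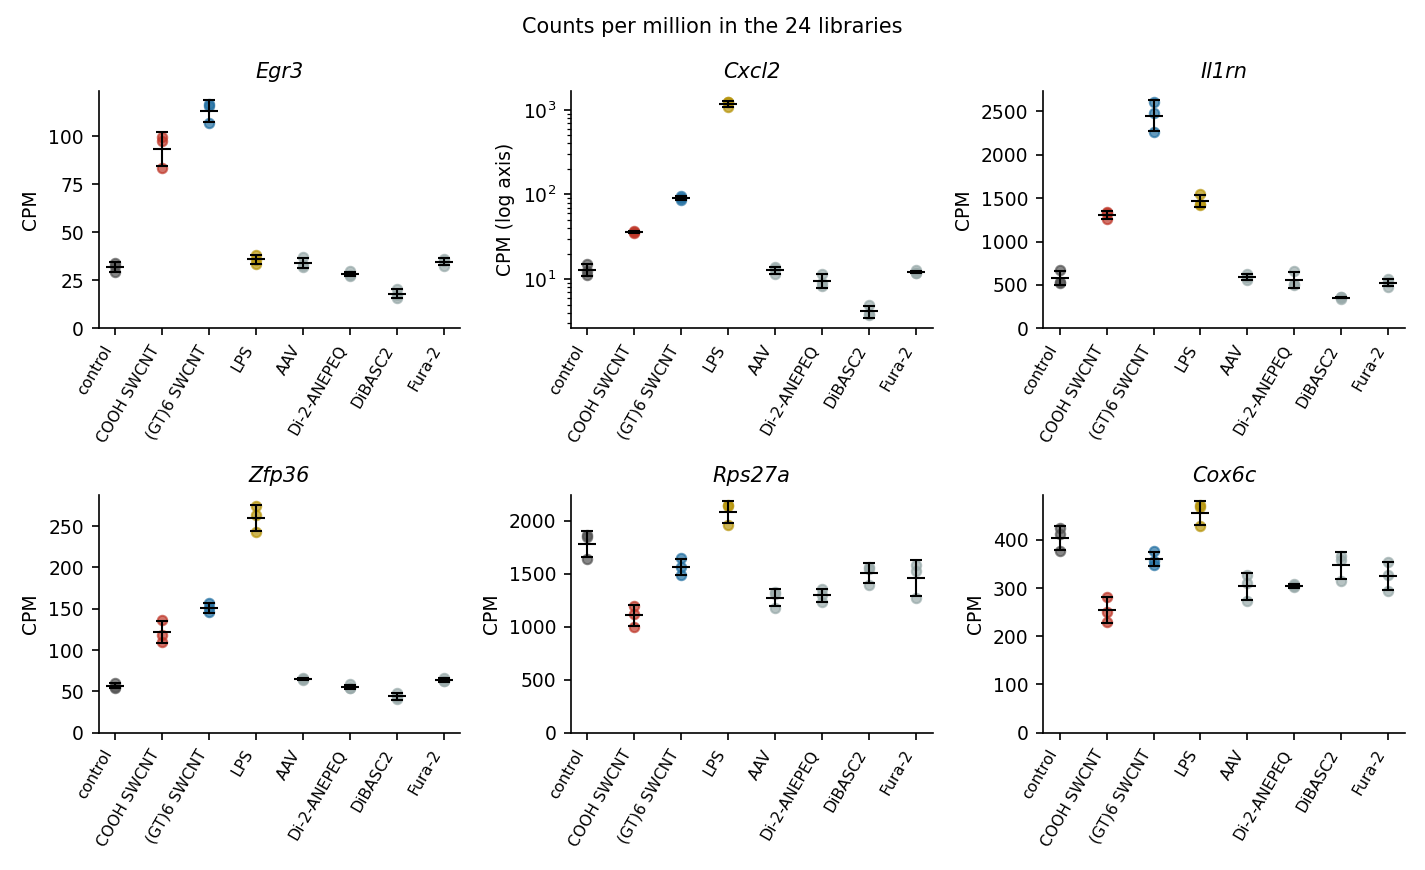
Levels in CPM of 6 genes in all 24 libraries (points, 3 per group) with group mean and SD; Cxcl2 has a log axis and the others start at 0. Egr3 averages 93.5 with COOH SWCNT and 35.9 with LPS while Cxcl2 runs from 35.5 to 36.9 with COOH SWCNT, and Rps27a is at 1001 to 1198 with COOH SWCNT, 1180 to 1333 with AAV and 1641 to 1865 in untreated cells.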

How the data were processed

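Poly-A RNA from SIM-A9 cells was sequenced, 3 libraries in each of 8 groups. The deposited table holds whole-number counts per gene for 54838 genes. Per the submitters' processing notes, STAR 2.5.4b and GRCm38.p6 were used. The program that made the counts, its strand setting and its annotation are not given in the sources used here. Gene names, types and lengths came from GENCODE M21, which matched 54809 identifiers. Length was taken from the principal transcript where such a transcript is annotated. Other genes, among them the non-coding ones, took the transcript of median length. That gave 556 nt for Malat1, a gene that runs from 5795690 to 5802672 on chromosome 19, and 1030 nt for Neat1 (5824708 to 5845478). The length results for non-coding genes rest on such lengths.

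Counts were fitted with edgeR 4.0.16 (quasi-likelihood test, R 4.3.3) on all 24 libraries with 8 group means, so that the groups share 1 estimate of spread (16 residual degrees of freedom, biological coefficient of variation 4.12%). Genes were kept by filterByExpr and scaled by TMM, and p-values were adjusted by Benjamini-Hochberg over 13116 genes. SE is the log2 fold change divided by the square root of F. Length trends were removed as offsets from natural splines (5 degrees of freedom) fitted per library. Scripts were tested on simulated data. Other tools were limma 3.58.1 and DESeq2 1.42.0.

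Named genes were the 8 highest and 8 lowest protein-coding genes called, with at least 5 CPM and no overlap of libraries, a set of 14 fixed genes, up to 4 called members and the most abundant member of each list, and the 3 highest and lowest in each direct comparison. Other members and Olr1 were picked after their values were seen. The comparison and the gene lists were chosen with earlier results of these data known. Some items are not reported here.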

Additional observations from a re-analysis of the deposited data

How the results depend on the processing

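The number of genes called against untreated cells was 2621 with DESeq2's size factors, 2608 with upper-quartile factors, 2353 with no low-count filter, 2604 at a mean of at least 50 counts, 2622 from the 2 groups alone and 2560 by DESeq2's test. With the length trend removed 2470 genes were called and 1964 of the 2627 were shared, with length and GC trends removed 2375 and 1786, and with exonic length 2601 and 2157. Leaving out single libraries gave 1814 to 2422 calls, and 925 (without COOH SWCNT replicate 1) to 1304 lower calls. Genes at a log2 fold change of 1 or more numbered 70 by DESeq2 and 40 at a mean of at least 50 counts. The length slope ranged from 0.016 with gene span to 0.21 at a mean of at least 50 counts. Of 119 examined genes that were called, 101 kept the call in each alternative that tested them, 15 or 16 per gene.

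Genes near 0 or near the detection limit changed sign. Rpl7a was at 0.0075 with the length trend removed and 0.0048 with length and GC trends removed, and Trem2 at 0.0010 with the length trend removed. Hmgcs1 was at 0.0047 with upper-quartile factors, 0.0012 at a mean of at least 50 counts, 0.0012 from the 2 groups alone and 0.023 with length and GC trends removed. Leaving out single libraries gave -0.042 to 0.032 for Hmgcs1, -0.037 to 0.050 for Hmox1, -0.46 to 0.20 for Marco, -0.0075 to 0.094 for mt-Co1, -0.15 to 0.0032 for Dusp6 and -0.47 to 0.74 for Csf3. The cause was not tested.

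With the replicate number as a block 2548 genes were called, 1198 higher and 1350 lower. Same-numbered libraries did not deviate together (correlations of -0.11, -0.032 and 0.011), so the numbers were not treated as pairs. Genes of a few counts, such as Il6, Csf3, Marco and Olr1, are limited by depth.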

Other observations

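Other genes of protein synthesis and turnover were grouped after their values were seen. Their counts stand beside 10.6% called lower and 9.39% called higher over all genes tested. Of 77 tested mitochondrial ribosomal protein genes 38 fell and 1 rose (50.6% called), with a median log2 fold change of -0.16. Mrpl18, a subunit of the large mitochondrial ribosome, stood at 132, 129 and 135 CPM untreated and 95.3, 93.8 and 98.6 CPM with COOH SWCNT (-0.46 ± 0.04 SE, adjusted p = 1.33e-10 by edgeR). The 2 groups did not overlap for it. With the length trend removed 28 fell and 2 rose.

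Proteasome subunit genes followed the same direction, with 59.5% called beside 20.0% over all genes tested. Of 37 tested 22 fell and 0 rose (median -0.14), led by Psma7, a subunit of the catalytic core, at 321, 313 and 330 CPM untreated and 237, 254 and 257 CPM treated (-0.37 ± 0.05 SE, adjusted p = 1.47e-07 by edgeR). The count was 11 without COOH SWCNT replicate 1, 12 without untreated replicate 1 and 13 with the length trend removed. Of 20 translation factors 10 fell and 1 rose (55% called). Eef1b2, an exchange factor of elongation, fell by 0.38, while Eef2, which moves the ribosome along the mRNA, rose by 0.14. With the length trend removed 7 fell and 2 rose.

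Host genes of small nucleolar RNAs fell most among these groups, 8 of 12 tested with 0 higher (median -0.44), and 7 with the length trend removed. The share called was 66.7%, beside 20.0% over all genes tested. Gas5 stood at 114, 98.7 and 101 CPM untreated and 64.8, 72.2 and 81.1 CPM treated (-0.52 ± 0.06 SE, adjusted p = 3.15e-08 by edgeR). Snhg1 fell by 0.58 and Snhg12 by 0.65, and neither gene's groups overlapped.

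Of 359 lincRNA genes 22 rose (6.13%, beside 9.39% over all genes tested) and 22 fell (6.13%, beside 10.6%). The median level of lincRNA genes was 1.06 CPM, beside 35.7 CPM for protein-coding genes. Neat1 and Malat1, picked after their values were seen, were among those called higher. Neat1, which builds paraspeckles, stood at 71.2, 65.8 and 59.5 CPM untreated and 111, 118 and 144 CPM treated (0.92 ± 0.08 SE, adjusted p = 6.36e-12 by edgeR). Malat1, a nuclear speckle RNA, stood at 294, 300 and 313 CPM untreated and 390, 331 and 506 CPM treated (0.44 ± 0.13 SE, adjusted p = 0.0133 by edgeR), with COOH SWCNT replicate 3 well above the other 2. Among 327 gene models that still await experimental support (TEC in the annotation) 39 rose (11.9%, beside 9.39% over all genes tested) and 3 fell (0.917%, beside 10.6%), at a median level of 0.50 CPM and a median log2 fold change of 0.40. Among 454 processed pseudogenes 5 rose (1.10%) and 24 fell (5.29%), both below the shares over all genes tested, with a median of -0.13. Their median level was 0.68 CPM.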
